A study of Mus musculus with 2 samples.

Results

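The 4 teneurins (Tenm1, Tenm2, Tenm3 and Tenm4), the 3 latrophilins (Adgrl1, Adgrl2 and Adgrl3) and the Flrt ligands Flrt2 and Flrt3 were described in Slide-tags single-nucleus RNA-sequencing of mouse brain. These 9 genes were taken by their symbols from the 32285 genes of each of 2 libraries, and all 9 were present in both. The adult hippocampus library held nuclei of a coronal section from male C57BL/6J mice, an inbred laboratory strain, aged 56 days. The E14 library held nuclei of a sagittal brain section of a whole C57BL/6J embryo, bought frozen, at embryonic day 14. The labels name no transgene, mutant allele or treatment in either group. Slide-tags labels nuclei in a frozen section with bead-derived spatial barcodes before droplet-based sequencing, but the positions were not analysed here. Each tissue gave 1 library, so there was no replicate and no test between classes or ages could be made, and the nuclei of a library do not stand in for replicates.

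Teneurins are large single-pass membrane proteins of the synaptic surface, and they act in trans both on each other and on latrophilins. Latrophilins are adhesion G-protein-coupled receptors that bind teneurins, Flrt proteins and other partners such as neurexins and contactin 6. Flrt proteins are leucine-rich-repeat membrane proteins that are ligands of latrophilins and also of the Unc5 receptors, through which they act in axon guidance and in the migration of cortical neurons. In the hippocampus, Tenm3 and Adgrl2 (latrophilin-2) are known for the matching of CA1 axons with their targets in the subiculum and entorhinal cortex, and Adgrl2 and Adgrl3 for different synaptic inputs onto the same CA1 pyramidal neuron.

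On the GRCm38 assembly (GENCODE vM21), the 9 loci differed greatly in length. The teneurin genes were long, with Tenm1 at chrX:42527866-43429126, Tenm2 at chr11:36006656-37235964, Tenm3 at chr8:48227682-48843951 and Tenm4 at chr7:96171246-96911093. The latrophilin genes were Adgrl1 at chr8:83900105-83941954, Adgrl2 at chr3:148815583-148990555 and Adgrl3 at chr5:81020138-81825133. The Flrt genes were Flrt2 at chr12:95692226-95785215 and Flrt3 at chr2:140650914-140671469. They spanned from 20.6 kb (Flrt3) to 1229 kb (Tenm2). Intronic reads were counted, so levels of different genes are first set side by side per kilobase of locus. In the whole adult library, Flrt3 then stood highest at 6.24 CPM per kb, CPM being the UMIs (unique molecular identifiers) of a gene per 1000000 UMIs of the nuclei summed, followed by Adgrl1 at 3.59 and Tenm2 at 1.95, and Tenm1 lowest at 0.367. In the E14 library the highest were again Flrt3 (7.69), Tenm2 (3.62) and Adgrl1 (3.43), and Tenm1 was again the lowest (0.559). These orders depend on the division by length, which favours short loci if UMIs do not rise in proportion to length. Undivided, the adult levels were 2402 CPM for Tenm2, 331 for Tenm1, 150 for Adgrl1 and 128 for Flrt3. Neither order is read as a ranking of expression.

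RefSeq promoter entries on GRCm38.p6 were matched for all 9 genes. They are shown for the 3 members whose RefSeq start lay within 7 bases of the GENCODE gene start and whose 250 upstream bases held an E-box, the binding motif of basic helix-loop-helix factors, many of which act in neurons. Capitals mark each match to CANNTG, which reads as CANNTG on both strands. The windows are chr7:96170994-96171243 on the plus strand for Tenm4, chr12:95691976-95692225 on the plus strand for Flrt2 and chr2:140671477-140671726 on the minus strand for Flrt3.
Tenm4: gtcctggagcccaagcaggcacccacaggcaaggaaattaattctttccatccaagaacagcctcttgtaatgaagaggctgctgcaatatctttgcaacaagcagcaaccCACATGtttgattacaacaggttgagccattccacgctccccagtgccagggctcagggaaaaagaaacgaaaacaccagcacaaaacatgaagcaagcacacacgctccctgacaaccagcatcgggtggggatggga
Flrt2: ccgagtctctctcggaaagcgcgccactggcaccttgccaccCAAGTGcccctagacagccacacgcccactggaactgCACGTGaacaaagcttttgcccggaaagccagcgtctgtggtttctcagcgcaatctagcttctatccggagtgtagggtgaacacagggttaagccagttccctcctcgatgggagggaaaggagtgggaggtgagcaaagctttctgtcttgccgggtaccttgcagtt
Flrt3: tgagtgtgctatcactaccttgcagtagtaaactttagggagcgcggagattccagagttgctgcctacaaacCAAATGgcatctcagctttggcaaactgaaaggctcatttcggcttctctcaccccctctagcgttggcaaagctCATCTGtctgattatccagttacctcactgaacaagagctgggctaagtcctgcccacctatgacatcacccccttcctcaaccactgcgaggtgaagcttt
Of all 32851 promoters, 66.2% held CANNTG in the same window, so a match is common. The CATCTG form of the Flrt3 window, or its reverse complement CAGATG, was in 14.4% of all promoters. The Adgrl1 window, whose start also lay within 7 bases of the gene start, held no CANNTG and had a GC content of 68.8%, against 50.8% for Tenm4, 57.2% for Flrt2 and 50% for Flrt3. A match is a description of the letters and not a site of binding, which was not measured.

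After a minimum of 500 UMIs and a limit of 5% mitochondrial UMIs, 1609 of 1661 adult barcodes and 9036 E14 barcodes (all but 1) were kept, with medians of 6607 and 4204 UMIs per nucleus and 15346746 and 58923882 UMIs in all. The libraries shared 1 barcode. Each nucleus was put in a class from the UMIs of 8 markers per class, none of them a member, which named 1221 adult (75.9%) and 3483 E14 (38.5%) nuclei, and the rest stayed unassigned. Classes of at least 20 nuclei were described, 10 in the adult and 14 at E14. In all 10 adult classes the 8 of 8 markers were higher than in the other nuclei, although dentate granule-like nuclei had a median of 18 UMIs of their own list and 21 of the inhibitory list. At E14 the midbrain GABAergic-like nuclei had only 5 of 8 markers higher, with Tal2, Pax3 and Pax7 at 0, and a median of 5 UMIs of their own list against 13 of the thalamic list. The name of that class is therefore weak, and the E14 mural-like class likewise held fewer own-list UMIs (12.5) than striatal-list UMIs (16.5). Levels are CPM over the summed UMIs of a class, with exact Poisson 95% intervals that cover counting error only.

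In the adult library the teneurins were high in neurons, with a different order of classes for each (see the plot of adult levels by class). Tenm2, the most widely detected teneurin of neurons here, reached 4392 CPM in 84 thalamic-like nuclei, 3707 in 203 CA1-like, 3119 in 36 inhibitory-like, 2725 in 45 CA3-like and 1952 in 364 dentate granule-like nuclei. The intervals of these 5 classes did not overlap, and all were above the 42.4 of astrocyte-like and the 20.2 of endothelial-like nuclei. Tenm4, which is known from oligodendrocyte development as well as from neurons, was at 1345 CPM in thalamic-like, 657 in CA3-like, 638 in inhibitory-like and 481 in CA1-like nuclei, and only at 21.5 in dentate granule-like nuclei. CA3-like and inhibitory-like nuclei did not differ in Tenm4 beyond their intervals. Oligodendrocyte-like nuclei held 42.5 and oligodendrocyte precursor-like nuclei 28.6 CPM of Tenm4, the latter from 5 UMIs.

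**Figure D1:**
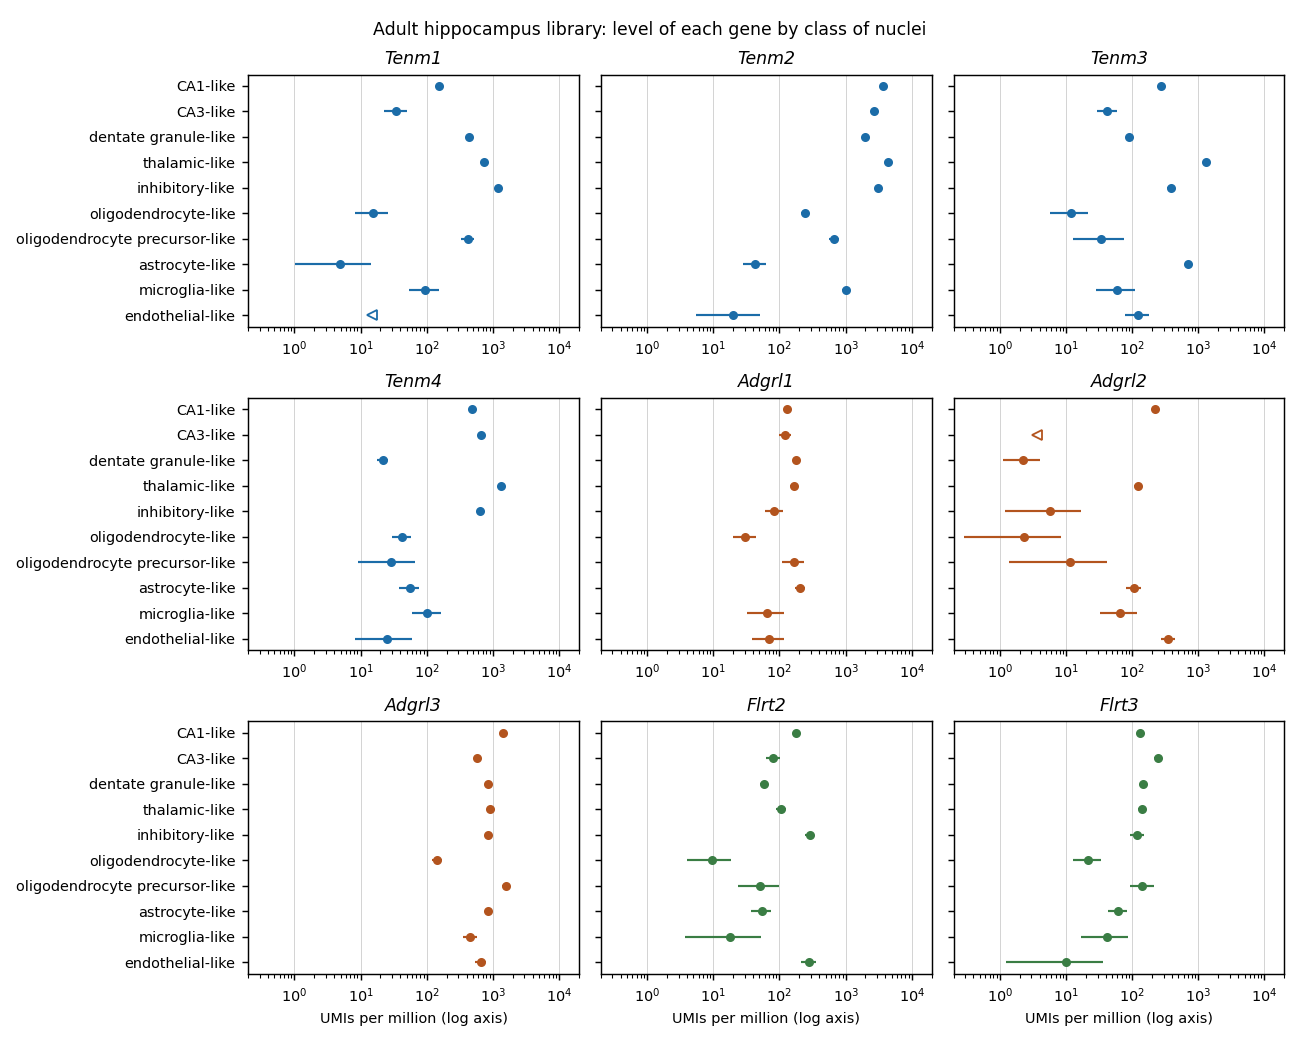
Levels of the 9 genes by class in the adult hippocampus library, as UMIs per 1000000 (CPM) on a log axis with exact 95% Poisson intervals. Open triangles stand at the floor of 3 UMIs for classes with no UMI of a gene. Tenm2 lay between 1952 and 4392 in every neuronal class, whereas Adgrl2 went from no UMI in CA3-like to 220 in CA1-like nuclei.

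Tenm1 and Tenm3 divided the neurons further. Tenm1, the X-linked teneurin, had 1181 CPM in inhibitory-like nuclei, 748 in thalamic-like and 436 in dentate granule-like nuclei, against 151 in CA1-like and 34.4 in CA3-like nuclei. One inhibitory-like nucleus held 25.3% of the Tenm1 UMIs of its class, and without it the level was 920, still the highest. The median per nucleus was 5.10 UMIs per 10000 in inhibitory-like and 5.80 in thalamic-like nuclei, so this lead held for the summed level only. Tenm3 was at 1300 CPM in thalamic-like, 391 in inhibitory-like, 270.5 in CA1-like, 91.1 in dentate granule-like and 41.8 in CA3-like nuclei. Its second-highest class was not neuronal: 112 astrocyte-like nuclei stood at 701, with a UMI in 75.9% of nuclei and a median of 5.20 UMIs per 10000 in each. The same astrocyte-like nuclei had a median of 0 for Tenm1, Tenm2 and Tenm4.

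Outside neurons some teneurin values rested on few or single nuclei. Tenm1 had 417 CPM in 30 oligodendrocyte precursor-like nuclei (21 of them with a UMI), which did not differ from dentate granule-like nuclei beyond the intervals. It had 15.3 in oligodendrocyte-like nuclei, 3 UMIs in astrocyte-like nuclei and none in 40 endothelial-like nuclei, where the floor of 3 counts is 15.2 CPM or 7.5% of nuclei with a UMI, and the exact upper limits are 18.7 CPM and 8.81%. The 1015 CPM of Tenm2 in microglia-like nuclei came from 8 of 43 nuclei, 30% of them from a nucleus of 19678 UMIs in a class with a median of 2288. All 17 Tenm4 UMIs of that class lay in 1 nucleus, and with a stricter lead of 3 in marker score the class held 359 CPM of Tenm2 and no Tenm4 UMI. Whether such nuclei hold RNA of a neighbouring neuron was not tested. In endothelial-like nuclei, 58.3% of the Tenm3 UMIs came from 1 nucleus.

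Among the receptors, Adgrl2 had the most restricted pattern. CA1-like nuclei held 772 Adgrl2 UMIs, 220 CPM (205 to 236), in 165 of 203 nuclei. Dentate granule-like nuclei held 11 UMIs, 2.25 CPM (1.12 to 4.03), in 9 of 364 nuclei. None of 45 CA3-like nuclei had an Adgrl2 UMI, for which the floor of 3 counts is 3.68 CPM or 6.67% of nuclei with a UMI, and the exact upper limits are 4.53 CPM and 7.87%. This limits nuclei with a UMI, not nuclei that express the gene. The CA3-like nuclei were about as deep as the CA1-like nuclei, with medians of 16982 and 17898 UMIs. Inhibitory-like nuclei had 3 UMIs and oligodendrocyte-like nuclei 2. The highest level was outside neurons, 354 CPM (276 to 447) in endothelial-like nuclei, where 62.5% of nuclei had a UMI. Thalamic-like (123) and astrocyte-like nuclei (106) followed CA1-like nuclei and did not differ from each other beyond their intervals.

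Adgrl3 and Adgrl1, the other 2 latrophilins, were more even. Adgrl3 was highest in oligodendrocyte precursor-like (1570 CPM) and CA1-like nuclei (1445), whose intervals overlapped. It was then between 838 and 912 in thalamic-like, astrocyte-like, dentate granule-like and inhibitory-like nuclei, at 652 in endothelial-like, 585 in CA3-like and 143 in oligodendrocyte-like nuclei. Adgrl1 ranged from 204 in astrocyte-like, 176 in dentate granule-like and 168 in thalamic-like nuclei to 30.7 in oligodendrocyte-like nuclei, and the intervals of its 4 highest classes overlapped from neighbour to neighbour. In CA3-like nuclei, then, Adgrl1 (84.4% of nuclei with a UMI) and Adgrl3 (86.7%) were detected where Adgrl2 was not.

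The Flrt ligands differed from each other in the same neurons. Flrt3 was highest in CA3-like nuclei at 249 CPM (216 to 286), and dentate granule-like (145), oligodendrocyte precursor-like (143), thalamic-like (142), CA1-like (129) and inhibitory-like nuclei (119) did not differ between neighbours in that order. Flrt2 was highest in inhibitory-like nuclei at 289 and reached 176 in CA1-like nuclei, against 79.8 in CA3-like and 57.9 in dentate granule-like nuclei. The Flrt2 level of endothelial-like nuclei, 278, rested on 1 nucleus that held 43 of the 55 UMIs (78.2%), and was 74.8 without it.

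CA1-like against dentate granule-like nuclei compares the output neurons of the hippocampus with the granule cells at its entrance. Of the 9 genes, 4 were at least 2-fold higher in CA1-like nuclei and 1 was at least 2-fold lower, against 20.4% of 13450 genes of at least 20 UMIs past 2-fold (8.16% higher and 12.3% lower). Among the 6497 genes with at least 200 UMIs, as most members have, this share was 15.9%. Adgrl2 was 97.7-fold higher (54.3 to 197), Tenm4 22.4-fold (18.4 to 27.5), Flrt2 3.04-fold (2.64 to 3.52) and Tenm3 2.97-fold (2.65 to 3.33). Tenm1 went the other way, 2.89-fold lower in CA1-like nuclei (2.62 to 3.18). Tenm2 (1.90-fold), Adgrl3 (1.72-fold), Adgrl1 (ratio 0.740) and Flrt3 (0.890) stayed within 2-fold. The median log2 ratio of the 9 genes was 0.93 and that of all genes −0.12. Each teneurin thus had its own ratio between these 2 classes, from 0.347 for Tenm1 to 22.4 for Tenm4 (the plot of single adult nuclei). Of 14 related genes (Flrt1, Adgrl4, 4 Unc5 receptors, Nrxn2, Nrxn3, Cntn6, Fgfr1, Dag1 and 3 Shank scaffolds), 11 had enough UMIs. Among them the presynaptic latrophilin ligand Nrxn3 (4.71-fold) and the postsynaptic scaffold Shank1 (2.21-fold) were higher in CA1-like nuclei, and the Flrt receptor Unc5d was 57.6-fold lower (38.2 to 91.0).

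**Figure D2:**
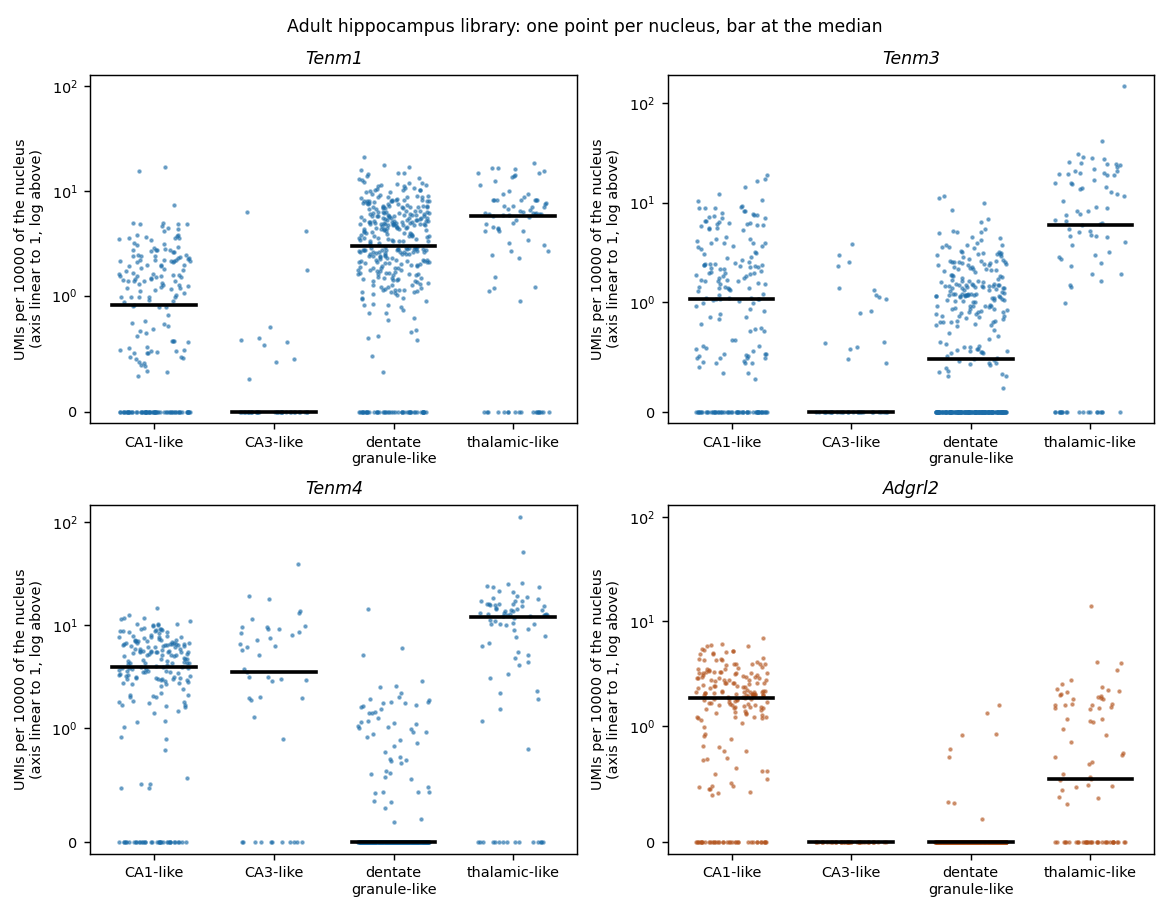
UMIs of Tenm1, Tenm3, Tenm4 and Adgrl2 per 10000 UMIs of each nucleus in 4 neuronal classes of the adult library (1 point per nucleus, random horizontal spread, bar at the median, axis linear up to 1 and logarithmic above). The medians of Tenm1 were 0.920 in CA1-like and 3.00 in dentate granule-like nuclei, whereas those of Tenm4 were 3.91 and 0.

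CA1-like and CA3-like nuclei are the 2 pyramidal classes. CA1-like nuclei were at least 2-fold higher than CA3-like nuclei for 5 of the 9 genes and lower for none, against 18.1% of 11722 genes past 2-fold (9.72% higher and 8.35% lower). Adgrl2 was 59.7-fold higher with the CA3-like class, which had no UMI, taken at the floor of 3 UMIs. This floor lies below the exact upper limit, so the ratio is not a lower bound. Tenm3 was 6.48-fold higher (4.60 to 9.41), Tenm1 4.39-fold (3.00 to 6.67), Adgrl3 2.47-fold (2.25 to 2.72) and Flrt2 2.21-fold (1.71 to 2.90). Flrt3 (ratio 0.519) and Tenm4 (0.733) were higher in CA3-like nuclei, within 2-fold, and Flrt2 fell within 2-fold when nuclei were weighted equally (log2 ratio 0.65) or a lead of 3 was asked (0.97). With that lead, Tenm1 and Tenm3 were further apart, with log2 ratios of 3.52 and 3.44 in place of 2.13 and 2.70. Of the related genes, 12 had enough UMIs and 3 were past 2-fold, all lower in CA1-like nuclei: Unc5c (8.61-fold), Unc5d (17.6-fold) and Cntn6 (9.34-fold), a contactin that binds latrophilins.

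Against thalamic-like nuclei, which entered the section beside the hippocampus, 3 teneurins were lower in CA1-like nuclei and no member was past 2-fold higher (background 29.4% of 12307 genes, 14.3% higher and 15.1% lower). Tenm1 was 4.95-fold lower (4.45 to 5.51), Tenm3 4.81-fold (4.44 to 5.20) and Tenm4 2.80-fold (2.62 to 2.99), whereas Tenm2 was close (ratio 0.844). The receptors were within 2-fold, with Adgrl2 at a ratio of 1.79, Adgrl3 at 1.58 and Adgrl1 at 0.775. Of 12 related genes, Unc5a and Fgfr1 were higher in CA1-like nuclei, and Flrt1, Unc5c, Unc5d, Nrxn2, Cntn6 and Shank3 were lower, Cntn6 by 111-fold (63.0 to 216).

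Astrocyte-like nuclei were set against CA1-like nuclei as a glial class with a neuronal one. Past 2-fold were 7 of the 9 genes, 1 higher and 6 lower, where 43.5% of 12110 genes were past 2-fold (23.8% higher and 19.8% lower), so the members' count is read against a large background. Tenm3 was 2.59-fold higher in astrocyte-like nuclei (2.31 to 2.91), while Tenm2 was 87.5-fold lower (59.7 to 134) and Tenm4 8.69-fold lower (6.19 to 12.6). Tenm1, with 3 UMIs, had a ratio of 0.0324 (0.00665 to 0.0951). Flrt2 was 3.28-fold lower, Flrt3 2.09-fold and Adgrl2 2.08-fold, and Flrt3 and Adgrl2 were within 2-fold with equal weights for nuclei (log2 ratios −0.94 and −0.65) and with a lead of 3 (−0.82 and −0.94). With Seurat clusters as classes, the log2 ratio of Flrt3 was −0.65 (−0.997 with nuclei of at least 1% Malat1 UMIs) and that of Tenm1 −0.91, so only the direction held, and that of Tenm2 was −3.15 in place of −6.45. Astrocyte-like nuclei were shallower than CA1-like nuclei (median of 5183 UMIs). Related genes past 2-fold were Flrt1, Nrxn2, Fgfr1 and Shank1 (higher in astrocyte-like nuclei) and Unc5a, Nrxn3 and Shank2 (lower), of 11 with enough UMIs.

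Within the oligodendrocyte lineage, 6 of the 9 genes had at least 20 UMIs, and 5 of these were past 2-fold, all higher in precursor-like than in oligodendrocyte-like nuclei. The background was 37.1% of 7773 genes, 16.7% higher and 20.4% lower in precursor-like nuclei. Tenm1 was 27.2-fold higher (14.9 to 53.5), Adgrl3 11-fold (8.85 to 13.7), Flrt3 6.72-fold (3.52 to 13.1), Adgrl1 5.40-fold (3.07 to 9.54) and Tenm2 2.78-fold (2.19 to 3.50). For Tenm2, 31.6% of the precursor UMIs lay in 1 nucleus, and the precursor level fell from 668 to 464 CPM without it, against 241 in oligodendrocyte-like nuclei. With a lead of 3, the Tenm2 ratio was within 2-fold (log2 ratio 0.88). Tenm4 had a ratio of 0.672 (0.206 to 1.72), and Tenm3, Adgrl2 and Flrt2 had too few UMIs. Of 9 related genes with enough UMIs, 7 were higher in precursor-like nuclei, Nrxn3 by 12.2-fold. Unc5b, with no UMI there, was 9.64-fold lower when taken at the floor of 3 UMIs.

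**Figure D3:**
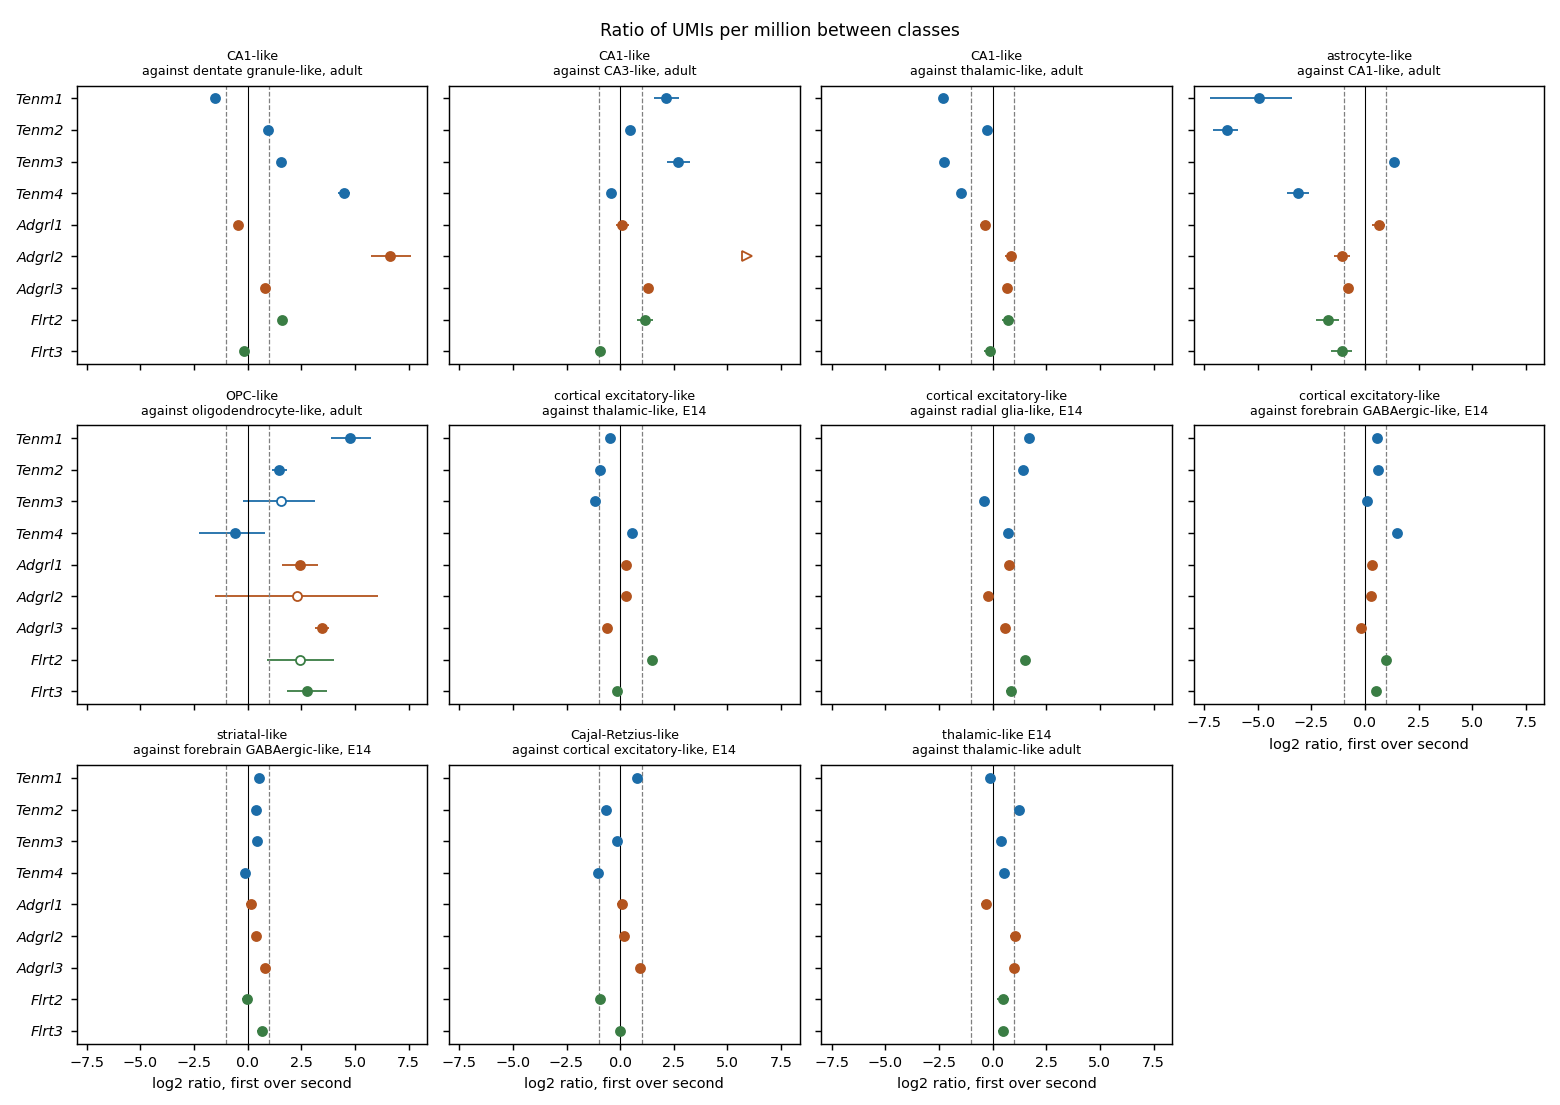
Log2 ratio of CPM between the 2 classes of each of the 11 comparisons, with exact 95% intervals. Dashed lines mark 2-fold, open circles members under 20 UMIs, and the open triangle the ratio for Adgrl2 in CA1-like against CA3-like nuclei (OPC, oligodendrocyte precursor). The CA3-like class had no Adgrl2 UMI and was taken at a floor below its exact upper limit. The Adgrl2 ratio is therefore not a lower bound. The widest spread of the members was in astrocyte-like against CA1-like nuclei and in CA1-like against dentate granule-like nuclei, and no member passed 2-fold between striatal-like and forebrain GABAergic-like nuclei.

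At E14 the 9 genes were detected in every described class, and the highest class stood 2.08-fold (Adgrl1) to 10.9-fold (Flrt2) above the lowest (the plot of E14 levels by class). In the adult library the same ratio went from 6.64-fold for Adgrl1 to 217-fold for Tenm2, with Tenm1 and Adgrl2 at 0 in their lowest class. The classes of the 2 libraries differ. E14 microglia or macrophage-like nuclei held 3967 CPM of Tenm2 and 1271 of Adgrl3, against 1015 and 454 in adult microglia-like nuclei. Detection in every E14 class and the narrower range are therefore not read as more even expression, and the part of background in them was not tested. Of the teneurins, Tenm2 stood at 10332 CPM in 608 thalamic-like nuclei, 5422 in 406 cortical excitatory-like, 4649 in 181 striatal-like and 3584 in 692 forebrain GABAergic-like nuclei. The lowest Tenm2 level was 1632 in fibroblast-like nuclei. Tenm3 was likewise highest in thalamic-like nuclei (1710), with 1006 in radial glia-like and 758 in cortical excitatory-like nuclei. Tenm4 had another order, with 2829 in cortical excitatory-like, 2421 in intermediate progenitor-like, 1922 in thalamic-like and 1738 in radial glia-like nuclei, and 899 in striatal-like nuclei. Tenm1 was highest in midbrain GABAergic-like (890) and Cajal-Retzius-like nuclei (834.5), which did not differ beyond their intervals, and was at 152 in radial glia-like nuclei.

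**Figure D4:**
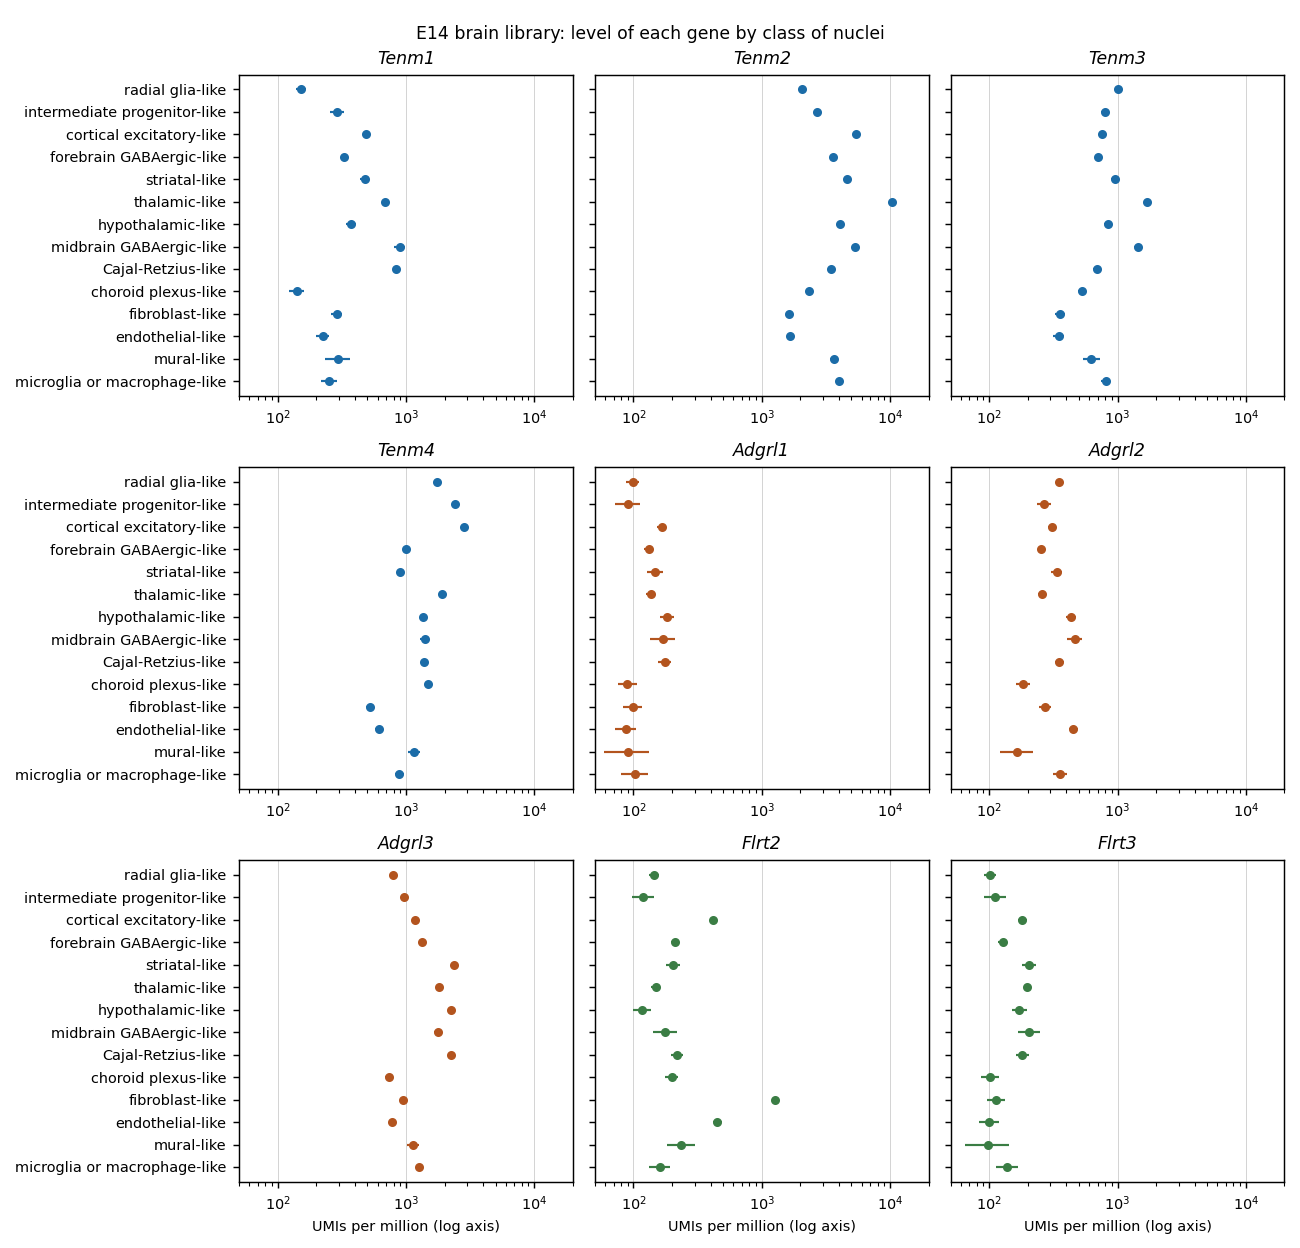
Levels of the 9 genes by class in the E14 brain library, as UMIs per 1000000 (CPM) on a log axis with exact 95% Poisson intervals. Flrt2 in fibroblast-like nuclei (1266) and Tenm2 in thalamic-like nuclei (10332) stood apart from the other classes, whereas Adgrl1 and Flrt3 stayed within a narrow range.

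Among the E14 receptors, Adgrl3 was at 2345 CPM in striatal-like, 2240 in hypothalamic-like and 2236 in Cajal-Retzius-like nuclei, which did not differ between neighbours, and lowest at 732 in choroid plexus-like nuclei. Adgrl2 reached 466 in midbrain GABAergic-like, 454 in endothelial-like and 434 in hypothalamic-like nuclei, without a difference beyond the intervals, and its lowest values were 184 in choroid plexus-like and 166 in mural-like nuclei. Among the E14 neuronal classes the lowest Adgrl2 level was 253 in forebrain GABAergic-like nuclei. Adgrl1 lay between 87.7 in endothelial-like and 183 in hypothalamic-like nuclei.

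Flrt2 and Flrt3 again went apart. Flrt2 was at 1266 CPM (1205 to 1329) in fibroblast-like nuclei, of which 166 of 223 had a UMI, then at 452 in endothelial-like and 414 in cortical excitatory-like nuclei, and at 117 in hypothalamic-like nuclei. Fibroblast-like nuclei led Flrt2 also with Seurat clusters as classes (1003) and with a lead of 3 (1055), and the leading classes of Tenm2 and Tenm4 also held under both. Tenm3 kept its leading class with Seurat clusters, but a class of 16 midbrain GABAergic-like nuclei led it with a lead of 3. Adgrl3 kept its leading class with a lead of 3, where Tenm1, Adgrl1, Adgrl2 and Flrt3 had another. No Seurat cluster was named striatal-like, hypothalamic-like or midbrain GABAergic-like. Adgrl3, Tenm1, Adgrl1, Adgrl2 and Flrt3 therefore could not keep their leading class with Seurat clusters, and nothing is concluded from its change there. Flrt3 was between 172 and 205 in 6 neuronal classes whose intervals overlapped from neighbour to neighbour, and at 97.4 in mural-like nuclei.

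The E14 microglia or macrophage-like nuclei were taken as the background class, and held 3967 CPM of Tenm2, 1271 of Adgrl3 and 886 of Tenm4. Since deeper nuclei give more nuclei with a UMI, each nucleus was thinned to 1000 UMIs before shares were compared. The E14 microglial class then had a Tenm2 UMI in 47.1% and an Adgrl3 UMI in 47.9% of nuclei, against 16.7% and 9.52% in adult microglia-like nuclei. With a lead of 3, the E14 class still held 2789 CPM of Tenm2. In each library the thinned share of the leading class lay above that of the microglial class, without overlap of the exact binomial intervals, for 6 of 9 genes. The exceptions were Adgrl1, Adgrl2 and Flrt2 in the adult, and Adgrl1, Adgrl2 and Flrt3 at E14. The leading class was picked by its level in the same nuclei, which favours a share above the microglial class. Adult Adgrl2 had thinned shares of 21.0% (15.5 to 27.4) in CA1-like, 9.52% (2.66 to 22.6) in microglia-like, 0.556% (0.0674 to 1.99) in dentate granule-like and 0% (0 to 8.04) in CA3-like nuclei. The adult classes thus differed in Adgrl2 beyond counting error, although CA1-like and microglia-like nuclei overlapped. At E14, thinned Tenm2 shares were at or below the background class in fibroblast-like (26.0%), endothelial-like (32.0%) and mural-like nuclei (41.7%), and Tenm4 shares in fibroblast-like (20.1%) and endothelial-like nuclei (22.0%). Tenm3 shares were so in intermediate progenitor-like (30.3%), Cajal-Retzius-like (30.2%) and forebrain GABAergic-like nuclei (28.0%) too, against 30.6% in the background class, and Adgrl2 shares in thalamic-like (20.4%) and forebrain GABAergic-like nuclei (17.2%), against 23.1%. Adgrl3 shares were below the 47.9% of the background class in choroid plexus-like (45.7%), endothelial-like (42%), fibroblast-like (38.2%), radial glia-like (35%) and intermediate progenitor-like nuclei (33.3%), and its interval overlapped that of cortical excitatory-like nuclei (51.1%). By level, the background class also lay above forebrain GABAergic-like, Cajal-Retzius-like and radial glia-like nuclei for Tenm2, though their thinned shares (72.4%, 61.1% and 53.5%) were higher than its own. Shares at or below that of the background class are not read as detection above it. The part of free RNA in them was not tested, nor whether the background class itself expresses these genes.

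**Figure D5:**
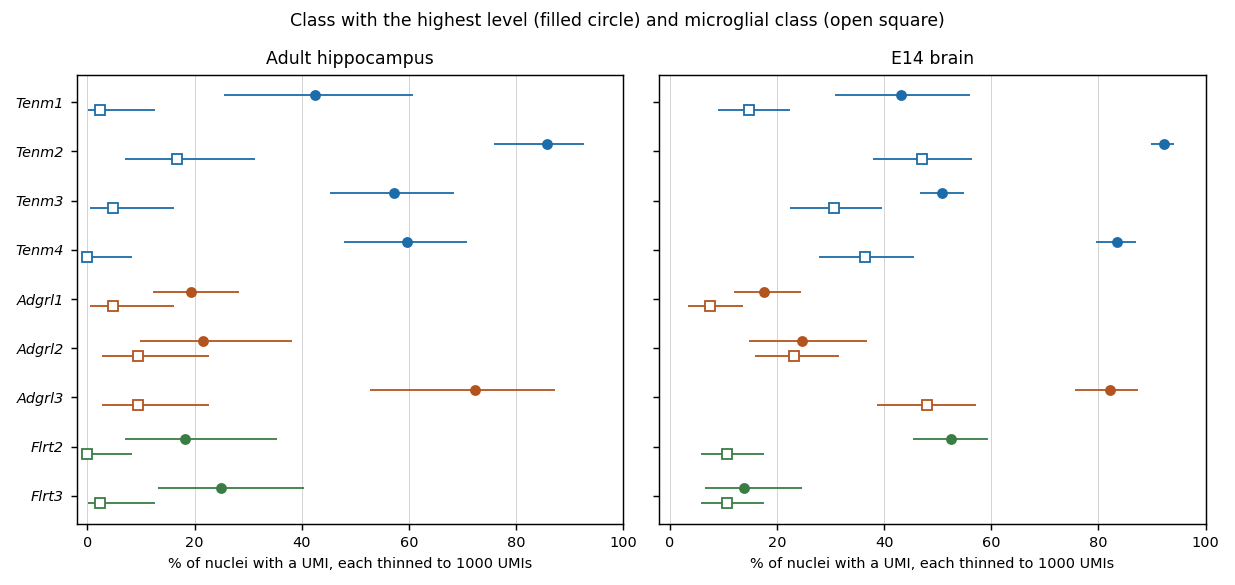
Share of nuclei with a UMI after thinning to 1000 UMIs, with exact 95% binomial intervals, for the class with the highest level of each gene (filled circles) and the microglial class (open squares). Tenm2 at E14 was at 92.2% in thalamic-like and 47.1% in microglia or macrophage-like nuclei, and the adult squares lay at or below 16.7%.

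Cortical excitatory-like against thalamic-like nuclei compares 2 sets of E14 regional neurons that later connect to each other. Past 2-fold were 2 of the 9 genes, Flrt2 2.77-fold higher in the cortical class (2.53 to 3.05) and Tenm3 2.26-fold lower (2.16 to 2.36), against 13.1% of 14102 genes (5.43% higher and 7.64% lower). Tenm2 was 1.91-fold lower, and past 2-fold with a lead of 3 (log2 ratio −1.06) and with Seurat clusters (−1.13). Of 13 related genes, Flrt1 (4.03-fold), Unc5d (2.85-fold) and Fgfr1 (2.56-fold) were higher in cortical nuclei, and Unc5c (3.59-fold), Cntn6 (3.26-fold) and Shank3 (2.21-fold) were lower. Flrt3 (ratio 0.915) and the other Flrt receptors Unc5a (1.22) and Unc5b (1.14) were within 2-fold.

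Against radial glia-like nuclei, the stem cells of the cortex and other regions, 3 of the 9 genes were past 2-fold and all were higher in cortical excitatory-like nuclei (background 23.6% of 14069 genes, 7.87% higher and 15.8% lower). These were Tenm1 (3.21-fold, 2.90 to 3.55), Flrt2 (2.88-fold, 2.59 to 3.20) and Tenm2 (2.65-fold, 2.58 to 2.73). Tenm3 (ratio 0.753) and Adgrl2 (0.870) were slightly higher in radial glia-like nuclei. With a lead of 3, Tenm4 (log2 ratio 1.34) and Adgrl1 (1.04) were also past 2-fold, making 5, and the log2 ratios of Tenm1, Flrt2 and Tenm2 were 3.27, 2.29 and 2.20. Of 13 related genes, Flrt1, Unc5a, Unc5d and Shank1 were higher and Dag1, the dystroglycan gene, was lower in cortical nuclei.

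Between cortical excitatory-like and forebrain GABAergic-like nuclei, Tenm4 was the only member past 2-fold, at 2.85-fold higher (2.76 to 2.96) in the cortical class, against a background of 9.49% of 14093 genes (4.8% higher and 4.68% lower). Flrt2 was just within (1.97-fold), and it passed with nuclei weighted equally (log2 ratio 1.07) and with a lead of 3 (1.67), where Tenm2 (1.13) passed too. Of 13 related genes, Flrt1, Unc5d and Fgfr1 were higher in the cortical class and Nrxn3 was 5.97-fold lower. No member was past 2-fold between striatal-like and forebrain GABAergic-like nuclei (background 11.1% of 13172 genes, 3.86% higher and 7.21% lower), the nearest being Adgrl3 at 1.75-fold, which passed with equal weights (log2 ratio 1.02) and with a lead of 3 (1.15). Cajal-Retzius-like nuclei, the transient neurons of the cortical surface, had 2.04-fold less Tenm4 (1.95 to 2.14) than cortical excitatory-like nuclei, which was the only member past 2-fold (background 10.5% of 13083 genes, 5.63% higher and 4.9% lower), and it was within 2-fold with Seurat clusters (log2 ratio −0.83). Adgrl3 (1.90-fold higher) and Flrt2 (1.89-fold lower) were close to 2-fold there. The related Unc5b (6.90-fold), Unc5c (2.39-fold) and Unc5a (2.06-fold) were higher in Cajal-Retzius-like nuclei, whereas Unc5d, Flrt1 and Fgfr1 were lower.

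Thalamic-like nuclei were the one neuronal class with at least 20 nuclei in both libraries, which differ in age, section, software version and depth, so that age cannot be told apart from the library. E14 nuclei were 2.35-fold higher in Tenm2 (2.29 to 2.42) and 2.08-fold in Adgrl2 (1.77 to 2.46), 2 of 9 genes where 40.1% of 13361 genes were past 2-fold (24.6% higher and 15.4% lower). Adgrl2 was within 2-fold with a lead of 3 (log2 ratio 0.61) and with Seurat clusters (0.72). Its E14 thalamic-like level (256 CPM) lay below the 358 of the E14 microglia or macrophage-like background class. The thinned E14 share of Adgrl2 in this class was likewise not above that of the background class. Its ratio is not read as a gain at E14, and the part of background in it was not tested. Adgrl3 was at 1.98-fold, and Tenm1 was about level (ratio 0.916). Of the related genes, Unc5d (7.59-fold), Fgfr1 (4.37-fold), Unc5a (2.22-fold) and Nrxn2 (2.08-fold) were higher at E14, and Flrt1 (2.75-fold) and Shank3 (2.14-fold) were lower.

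Most neurons held several teneurins at once. A UMI of 3 or of all 4 teneurins was found in 76.8% of CA1-like nuclei (115 of 203 with all 4), 77.4% of thalamic-like, 75% of inhibitory-like, 53.8% of dentate granule-like and 44.4% of CA3-like nuclei. In astrocyte-like nuclei this share was 2.68%, and 61 of 112 had a UMI of exactly 1 teneurin. At E14 the share was 85.0% in cortical excitatory-like, 84.0% in thalamic-like, 63.3% in radial glia-like, 52.5% in forebrain GABAergic-like and 22.9% in fibroblast-like nuclei. It was 43.0% in the microglia or macrophage-like background class, against 4.65% in adult microglia-like nuclei, and 68.1% in the deeper choroid plexus-like nuclei. These shares move with depth, and the medians ran from 5183 UMIs in astrocyte-like to 17898 in CA1-like nuclei of the adult library.

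Within CA1-like nuclei, the teneurin Tenm3 and the receptor Adgrl2 were mostly detected together, in 135 of 203 nuclei, with 12 nuclei holding only Tenm3, 30 only Adgrl2 and 26 neither. Across the 203 nuclei, which share a library and vary in depth, the Pearson correlation of the 2 was 0.0793, and it was −0.0993 in the 171 nuclei of at least 5000 UMIs. With the nuclei ranked by Tenm3 into 3 groups of 67 or 68, the Adgrl2 level was 225 CPM in the lowest, 232 in the middle and 205 in the highest group, with overlapping intervals. Neither the 3 groups nor these weak correlations showed a clear opposite pattern in CA1-like nuclei, without their positions. The lowest group was shallower, with a median of 11015.5 UMIs against 18685 in the middle and 19536 in the highest group. Nuclei with the very highest Tenm3 levels were not compared apart from their group, so a difference limited to them would be averaged out.

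Across the 24 described classes of both libraries, which share libraries and differ in depth, the pairs of members with the most similar profiles were Tenm1 and Tenm2 (Pearson r = 0.836), Tenm2 and Flrt3 (0.825), Tenm2 and Tenm4 (0.779), and the receptors Adgrl1 and Adgrl3 (0.774). Adgrl2 was most like Tenm3 (0.750) and least like Flrt3 (0.106) among the members. Both Adgrl2 (80.5 against 315 CPM) and Tenm3 (282 against 919 CPM) were lower in the whole adult library than in the E14 library. Every correlation across the 24 classes, for this pair and for the other pairs and genes, includes any such shift between libraries. None of them was calculated within a library. These correlations used log2 of CPM plus 10. Among 9714 genes reaching 50 CPM in some class, the most similar to Tenm1 were Atcay (0.899) and Cntn5 (0.899), to Tenm2 Nrg3os (0.946) and Myt1l (0.944), and to Tenm3 Mir124-2hg (0.886) and Pde9a (0.878) (for Adgrl1, Bhlhb9 was at 0.853). For Adgrl2 they were Smad2 (0.853) and Zfhx4 (0.845), and for Flrt2 March6 (0.835) and Tmtc4 (0.835).

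For the other 3 members, at least 1 of the 2 most similar genes lay at the same locus. Gm15414 (0.990) and Gm15413 (0.977), the closest to Tenm4, are antisense genes inside the Tenm4 locus, and Gm16054 (0.856) lies antisense inside Adgrl3, for which Chl1 (0.869) came first. Flrt3 lies on the opposite strand inside Macrod2, and Macrod2os1 (0.957) and Macrod2 (0.95) were its closest. Counted genes overlapped 8 of the 9 members, all on the opposite strand, and Flrt2 had none. Macrod2 was at 1377 CPM in CA3-like, 1159 in dentate granule-like and 1149 in CA1-like nuclei, and highest in thalamic-like nuclei at 1733. Whether reads of overlapping genes were shared in counting was not tested.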

How the data were processed

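Nuclei of 1 adult hippocampus section and 1 E14 brain section were sequenced by 10x 3′ single-nucleus RNA-sequencing after Slide-tags labelling. The authors deposited UMI counts per gene and nucleus, made with Cell Ranger (6.1.2 in the adult and 7.0.1 in the E14 file header) on mm10 with intronic reads; CellBender is named for the embryo in the study's methods, but the E14 values are whole-number counts under a Cell Ranger header. The spatial positions were not used.

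Samples were grouped by their tissue label. Nuclei were kept from 500 UMIs upward when mitochondrial genes took less than 5% of them. A nucleus was named from 8 markers per class: marker UMIs were scaled by depth, capped, averaged, and the leading class needed a score of at least 0.1, 1.5 times that of the next class, and at least 3 marker UMIs from at least 2 markers. This scoring rule was set after seeing marker scores. The members, marker lists and related genes were chosen with earlier results of these data known. Of the named nuclei, 143 adult and 1062 E14 had a lead between 1.5 and 2 times. Scrublet's automatic threshold marked 6 adult (0.373%) and 1 E14 nucleus (0.0111%), which did not work as a doublet call, so doublets were kept and leaving out 21 and 653 marked nuclei was an alternative.

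UMIs were summed per class and given as CPM (UMIs per 1000000), and shares of nuclei were compared after thinning to 1000 UMIs, which left out shallower nuclei. Ratios had exact 95% intervals, were called past 2-fold with at least 20 UMIs, and used a floor of 3 UMIs over the class for a count of 0. The genes named beside the members were those of 14 related genes past 2-fold and the 2 genes of most similar profile per member, except for 1 gene that is not reported here. The ratio script was tested on simulated counts. Alternatives were UMI minima, only nuclei of at least 1% Malat1 UMIs, a marker-score lead of 3, Seurat 5.3.0 clusters and equal weights for nuclei. Further ones were other thinning depths and pseudocounts, and, chosen after seeing the data, leaving out the nucleus with the most UMIs of a gene. Tools were Python 3.11.15, scanpy 1.11.5, scipy 1.17.1, numpy 2.4.6 and R 4.3.3.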

Additional observations from a re-analysis of the deposited data

How the results depend on the processing

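No call of a member past 2-fold changed direction under any alternative run. The counts of members past 2-fold moved by over 1.5 times in 5 comparisons, all with E14 nuclei, and single calls lost or gained in the others are given beside their results. With a lead of 3, they were 5 for cortical excitatory-like against radial glia-like, 3 against forebrain GABAergic-like, 2 for striatal-like against forebrain GABAergic-like, 3 for Cajal-Retzius-like against cortical excitatory-like and 1 for E14 against adult thalamic-like nuclei. With equal weights for nuclei they were 2 for cortical excitatory-like against forebrain GABAergic-like, 1 for striatal-like, 3 for Cajal-Retzius-like and 4 for E14 against adult thalamic-like nuclei. With Seurat clusters they were 2 for Cajal-Retzius-like and 1 for the thalamic comparison, and with marked doublets left out 3 for Cajal-Retzius-like nuclei. A lead of 3 named 794 adult and 1280 E14 nuclei, by its construction fewer, and left under 20 midbrain GABAergic-like and mural-like nuclei. At E14, 4 of 9 genes kept their leading class with a lead of 3 and 4 with Seurat clusters. For the other genes no Seurat cluster bore the name of the leading class, so they could not keep it. With a pseudocount of 1, 11 of the 18 most similar genes were kept. The Tenm3 and Adgrl2 correlation in CA1-like nuclei was −0.0993 at 5000 UMIs or more. The causes of the other shifts were not tested. The striatal-like comparison with Seurat clusters was not run. No paired analysis was possible because each tissue has 1 library and no result comes from a test between samples.

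Depth limits the statements most where UMIs were few: Adgrl2 in CA3-like, dentate granule-like, inhibitory-like and oligodendrocyte-like nuclei, Tenm1 in astrocyte-like and endothelial-like nuclei, and all members in adult microglia-like nuclei. The 24.1% of adult and 61.5% of E14 nuclei left unassigned had no class, and the adult ones were shallow, with a median of 1363.5 UMIs.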
